A study of Mus musculus with 8 samples.

Results

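The 9 genes described here, Cd79a, Cd79b, Blnk, Blk, Cd22, Cd72, Pou2af1, Bank1 and Pax5, are best known from B lymphocytes, and some of them are also used by plasmacytoid dendritic cells (pDC). They were read from every non-control probe carrying their gene name, 14 probes in all, on an array of 36095 named features of which 19818 were tested. Of the 9 genes, 6 were measured: Cd79a, Cd79b, Blnk, Blk, Cd22 and Cd72 were well above background on all 8 arrays by their brightest probe. Pou2af1, Bank1 and Pax5 were not well above background on any array. None of the 6 measured genes passed the test of Sca-1+ against Sca-1- pDC after adjustment over the whole array. Their differences lay between -0.34 and 0.46 on the log2 scale.

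The study sorted pDC by Sca-1, the surface protein encoded by Ly6a, from cultures of BALB/c bone marrow precursors from female mice grown with the Flt3 ligand (mFlt3-L). It compared 4 samples of Sca-1+ pDC with 4 samples of Sca-1- pDC on single-colour Agilent arrays. The cells came from culture and carried no further treatment, the replicate numbers 1 to 4 are those of the titles, and the labels give no age of the mice. The RNA was described as amplified polyA RNA, of which 100 ng per sample was amplified again during Cy3 labelling. The labels do not say whether the 4 samples of a group were independent cultures, and the p-values therefore refer to variation among these samples, part of which may be technical. In sorted populations measured as a whole, fewer cells making a transcript and less transcript per cell cannot be told apart.

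B cells sense antigen through a receptor made of membrane immunoglobulin and the Cd79a-Cd79b pair, whose tails recruit Src and Syk family kinases. The adaptor Blnk passes the signal on, whereas Cd22 and Cd72 are inhibitory receptors that dampen it. Pax5 is the transcription factor that commits cells to the B lineage, and Pou2af1 is a coactivator that works with octamer-binding factors. pDC are not B cells, but they depend on the E protein Tcf4 and on Spib, and they share a set of signalling genes with the B lineage.

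The 60-base probes of Blk and Pax5 are shown because the genes fall on opposite sides of detection. They are the sequences synthesised on the array, from 5′ to 3′, with positions in mouse build mm9 and on the minus strand. The Blk probe covers chr14:63997333-63998470, a span of 1138 bases for 60 bases of probe. The first Pax5 probe lies at chr4:44658421-44658480, and the second spans chr4:44550354-44582908, which is 32555 bases.
Blk probe: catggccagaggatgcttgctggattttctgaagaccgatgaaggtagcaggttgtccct
Pax5 main probe: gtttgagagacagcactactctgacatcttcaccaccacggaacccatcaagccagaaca
Pax5 other probe: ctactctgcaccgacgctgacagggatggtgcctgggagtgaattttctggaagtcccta
A span longer than the probe means that the probe skips intervening genomic sequence, as the Blk probe and the second Pax5 probe do. The Pax5 probes read separate positions, and neither was detected above background on a single array.

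RefSeq promoters (GRCm38.p6) were found for 7 of the 9 genes, and the 250 bases before the annotated start were searched on both strands for 4 motifs. These were the octamer ATTTGCAT, bound by Oct factors with Pou2af1, the Ebf site (TCCC and GGGA with any 2 bases between them), the Ets-Irf composite (GGAA and GAAA with any 2 bases between them), and the E-box CAGNTG of E proteins such as Tcf4. The promoters of Blnk (chr19:40994222-40994471, minus strand), Cd79a (chr7:24897247-24897496, plus strand) and Bank1 (chr3:136326067-136326316, minus strand) are shown, with capitals on every motif match. The first has the octamer, the second the E-box only, and the third, of a gene that was not detected, has a composite site.
Blnk promoter: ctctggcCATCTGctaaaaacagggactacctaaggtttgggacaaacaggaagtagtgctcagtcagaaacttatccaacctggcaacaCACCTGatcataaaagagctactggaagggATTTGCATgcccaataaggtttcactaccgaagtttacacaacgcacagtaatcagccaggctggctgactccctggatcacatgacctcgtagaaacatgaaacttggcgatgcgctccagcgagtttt
Cd79a promoter: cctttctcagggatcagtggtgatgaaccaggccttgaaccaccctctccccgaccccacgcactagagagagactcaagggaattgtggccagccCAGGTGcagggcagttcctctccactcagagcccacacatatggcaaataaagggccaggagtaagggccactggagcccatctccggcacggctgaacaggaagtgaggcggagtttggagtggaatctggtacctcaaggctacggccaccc
Bank1 promoter: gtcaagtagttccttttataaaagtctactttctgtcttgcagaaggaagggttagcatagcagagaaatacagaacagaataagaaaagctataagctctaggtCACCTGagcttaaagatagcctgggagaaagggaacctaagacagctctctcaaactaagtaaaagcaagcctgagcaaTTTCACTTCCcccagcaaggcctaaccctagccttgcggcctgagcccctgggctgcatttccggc
The octamer of Blnk starts 130 bases before the annotated start, and 1.60% of 32851 mouse promoter windows of this length hold an octamer. The Ebf site was found in 1 of the 7, Cd22, at 49 bases before the start, against 0.779% of all windows. The composite site was found in Bank1, at 66 bases before the start, against 2.30% of all windows. The E-box was found in 5 of the 7 promoters, those of Blnk, Cd79a, Cd22, Cd72 and Bank1, and in 44.8% of all windows. Pax5 and Pou2af1 had no match to any of the 4. A match describes letters in this window and not a bound site.

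Facts of the arrays that touch these values are few. The share of non-control spots marked as well above background was 46.6% to 51.7% on Sca-1+ arrays and 45.9% to 54.9% on Sca-1- arrays. A level below is log2 processed signal minus the 75th percentile of its array, and it compares samples within 1 probe and not 1 probe with another. Samples with the same replicate number shared a slide, with position 2 of the slide taken by the Sca-1+ sample and position 1 by the Sca-1- sample each time, so group and position cannot be told apart. Per the file headers, slides 1 to 3 were scanned on 1 day and slide 4 on another, with another version of the extraction protocol. The sort itself was visible in Ly6a, at 7.43 ± 0.28 in Sca-1+ and 2.78 ± 0.44 in Sca-1- samples (SD, n = 4 each), a difference of 4.65 ± 0.24 (SE, limma adjusted p = 0.000625). All 22 measured pDC markers were well above background on all 8 arrays, among them Siglech, Tcf4, Spib and Irf8. So were 17676 of the 19818 tested genes and all 10 measured conventional DC markers. Measured and tested genes had to be well above background on at least 4 arrays, and the array held 36095 named features. Among markers with a probe, the all-array count was 22 of 22 for pDC, 10 of 15 for conventional DC and 5 of 14 for T and NK cells. Markers of other cell types were thus detected too, and this detection alone does not identify a cell type.

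**Figure D1:**
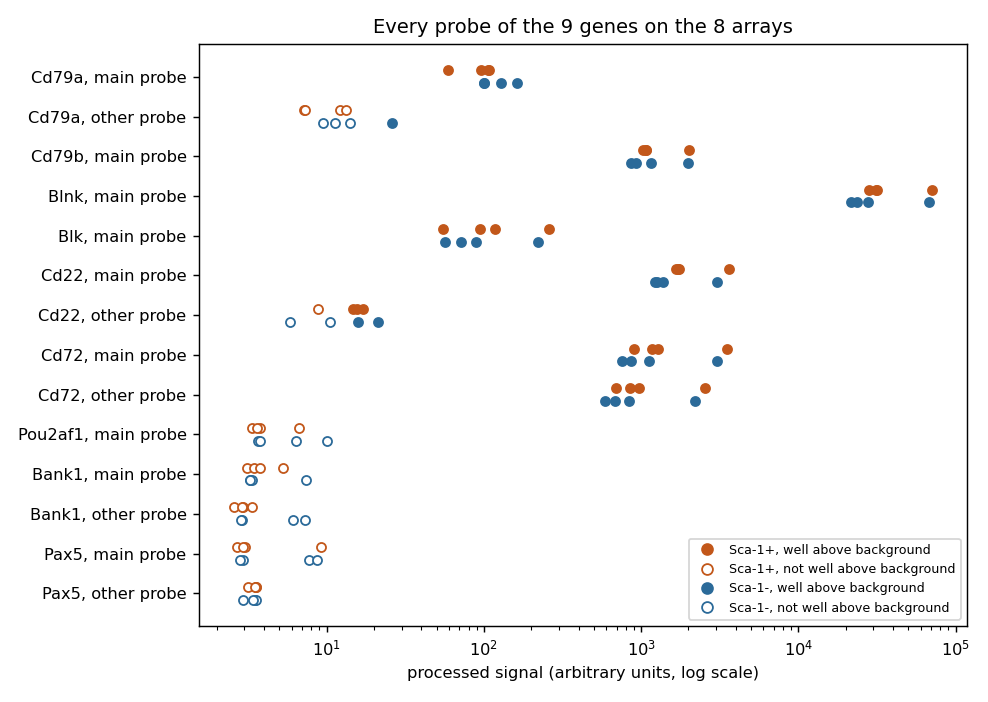
Processed signal (log axis, arbitrary units) of all 14 probes of the 9 genes, 4 points per group and probe, with Sca-1+ above Sca-1- in each row. Filled points were well above background and open points were not, and the 5 probes of Pou2af1, Bank1 and Pax5 have open points only.

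The signalling pair of the B cell receptor was well above background in both populations, Cd79a by its main probe. Cd79a, the immunoglobulin alpha chain whose tail carries an activation motif, was read by a main probe on chromosome 7 (25686823 to 25686882, mm9, plus strand). This probe was dim, at a processed signal of 59.3 to 109 in Sca-1+ and 100 to 163 in Sca-1- samples. In order of replicate, its level was -1.49, -1.01, -0.88 and -1.89 in Sca-1+ samples, against -0.84, -0.59, -1.06 and -1.41 in Sca-1- samples. The groups overlapped, and replicate 4 was the lowest sample of each. The difference was -0.34 ± 0.26 (SE), with a 95% interval of -0.95 to 0.26 and an adjusted p of 0.943 in limma, and within slides it was negative on 3 of 4. A second Cd79a probe (25684357 to 25684614) carried the mark of detection on 0 of 4 Sca-1+ and 1 of 4 Sca-1- arrays, and its processed signal was 7.21 to 13.2 in Sca-1+ and 9.52 to 26.2 in Sca-1- samples. It gave no usable second reading of the gene.

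Cd79b, the immunoglobulin beta chain and partner of Cd79a, was read by 1 probe on chromosome 11 (106172780 to 106172839, mm9, minus strand). It stood at 2.70, 2.41, 2.42 and 2.36 in Sca-1+ samples and at 2.32, 2.61, 2.05 and 2.19 in Sca-1- samples. The groups overlapped through Sca-1- replicate 2, which was above 3 of the 4 Sca-1+ samples. Its difference of 0.18 ± 0.16 (SE) had a 95% interval of -0.18 to 0.54, so a 1.46-fold higher level in Sca-1+ pDC is the largest inside it (limma adjusted p = 0.988). The point estimates of the receptor pair thus had opposite signs, and each interval included 0. Whether the pair's differences differ from each other was not tested.

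Blnk, the adaptor that links Syk to phospholipase C and Btk, was bright on every array. Its probe lies on chromosome 19 (41003426 to 41003485, mm9, minus strand), and its processed signal was 28161 to 71132 in Sca-1+ samples and 21709 to 67864 in Sca-1- samples. The level was 7.41, 7.37, 7.28 and 7.49 in Sca-1+ samples, against 6.90, 7.16, 6.81 and 7.29 in Sca-1- samples. Sca-1- replicate 4 lay just above Sca-1+ replicate 3, and otherwise every Sca-1+ sample was above every Sca-1- sample. Blnk was higher in Sca-1+ cells on 4 of 4 slides, by 0.51, 0.21, 0.47 and 0.20. The fitted difference of 0.35 ± 0.14 (SE) corresponds to 1.27-fold, with a 95% interval of 0.02 to 0.68. Its adjusted p was 0.507 in limma, and 0.0893 with slide as a term of the fit, so the gene did not pass. Over all alternatives its adjusted p was 0.0642 to 1.00.

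Blk, a Src family kinase that phosphorylates the receptor tails, was dim but detected everywhere, at a processed signal of 54.8 to 261 in Sca-1+ and 56.8 to 220 in Sca-1- samples. Its level was -1.60, -0.71, -1.08 and -0.60 in Sca-1+ samples and -1.38, -1.42, -1.54 and -0.98 in Sca-1- samples. Sca-1+ replicate 1 was the lowest of the 8, and the other 3 Sca-1+ samples stood within or above the Sca-1- range. The difference was 0.33 ± 0.24 (SE, 95% interval -0.22 to 0.88, limma adjusted p = 0.906). Without Sca-1+ replicate 1 the Blk difference was 0.53 (adjusted p = 0.551), and without both samples of slide 1 it was 0.52. Its adjusted p was 0.275 to 1.00 over all alternatives, so no setting brought it past the threshold.

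**Figure D2:**
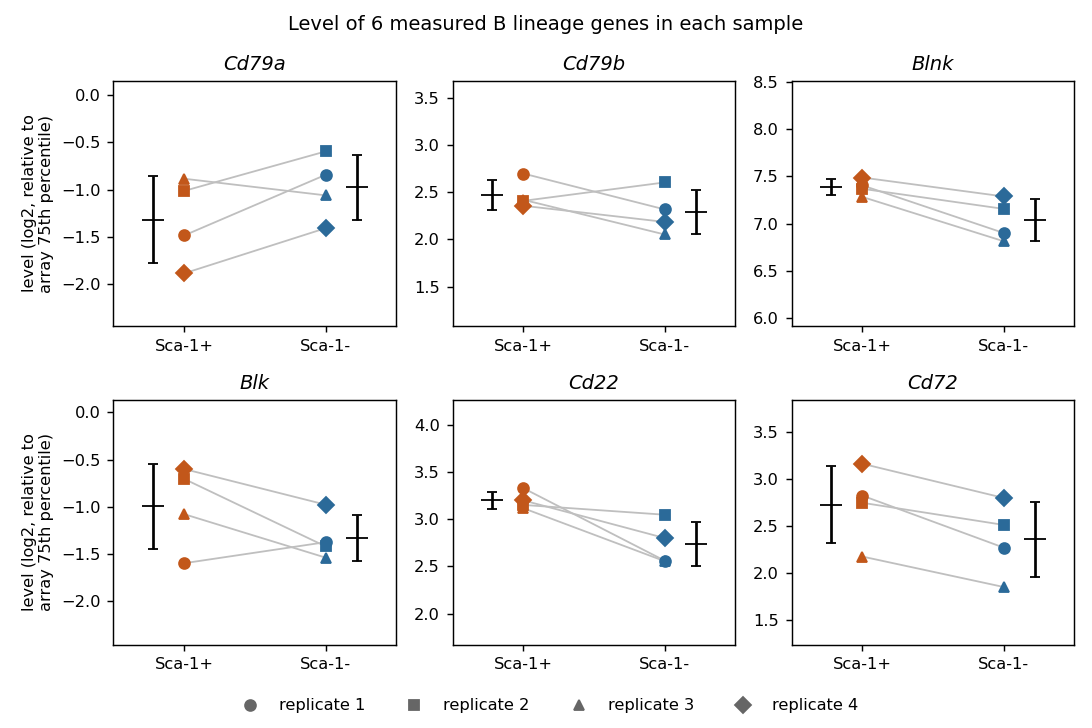
Level of each of the 6 measured genes (log2 processed signal relative to the 75th percentile of the array) in the 4 Sca-1+ and 4 Sca-1- samples. Grey lines join samples of 1 slide, marker shape gives the replicate, and black bars give mean ± SD (n = 4). Cd22 is the panel in which the groups do not overlap (Sca-1+ 3.12 to 3.33, Sca-1- 2.56 to 3.05).

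The inhibitory receptors were readily measured. Cd22, a sialic acid-binding lectin that recruits the phosphatase encoded by Ptpn6, was read by a main probe on chromosome 7 (31651249 to 31651308, mm9, minus strand). Its level was 3.33, 3.15, 3.12 and 3.20 in Sca-1+ samples, against 2.56, 3.05, 2.56 and 2.80 in Sca-1- samples. All 4 Sca-1+ samples were above all 4 Sca-1- samples, and the Sca-1+ values were the closer together (SD 0.093, against 0.235 in Sca-1- samples). The difference of 0.46 ± 0.15 (SE) corresponds to 1.37-fold, with a 95% interval of 0.12 to 0.80. The unadjusted p was 0.0140, a value undercut by 4.74% of all tested genes, and the adjusted p was 0.294 in limma and 0.0938 with slide in the fit (0.0553 to 1.00 over all alternatives). Groups did not overlap for 6.95% of tested genes, 1.91% with Sca-1+ higher, so 1 of 6 measured members with separate groups is not read as a result about them.

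A second Cd22 probe, 31665113 to 31665172, was dim. The mark was present on 3 of 4 Sca-1+ and 2 of 4 Sca-1- arrays, with processed signals of 8.81 to 17.2 in Sca-1+ and 5.87 to 21.1 in Sca-1- samples. Its difference was 0.27 ± 0.53 (SE, limma over every probe, adjusted p = 1.00), an SE larger than the difference itself.

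Cd72, a lectin-like receptor that also recruits the Ptpn6 phosphatase, was read by 2 probes on chromosome 4 (mm9, minus strand), at 43460596 to 43460655 and at 43460607 to 43460666. They overlap by 49 bases and are nearly 1 measurement. The main probe gave 2.82, 2.75, 2.18 and 3.16 in Sca-1+ samples and 2.27, 2.51, 1.85 and 2.80 in Sca-1- samples. Replicate 3 was the lowest and replicate 4 the highest sample in both groups, so the groups overlapped although every slide had the Sca-1+ sample higher, by 0.55, 0.24, 0.32 and 0.36. The difference was 0.37 ± 0.26 (SE) without slide in the fit, with a 95% interval of -0.23 to 0.97 and a limma adjusted p of 0.901. With slide in the fit the SE was 0.085 and the adjusted p was 0.0663, the lowest over all alternatives (highest 1.00). The other probe gave 0.33 ± 0.25 (SE).

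**Figure D3:**
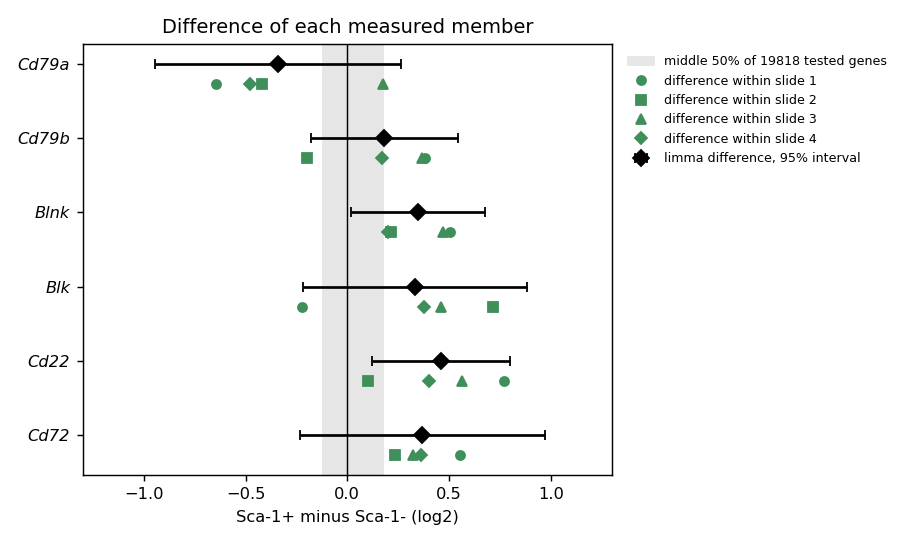
Difference between Sca-1+ and Sca-1- samples (log2) for the 6 measured genes, with the limma estimate and its 95% interval in black and the difference within each slide in green below it. The grey band holds the middle 50% of all 19818 tested genes (-0.12 to 0.17). Blnk, Cd22 and Cd72 are right of 0 on all 4 slides, and Cd79a is left of 0 on 3.

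The transcriptional regulators were at background. Pax5 had processed signals of 2.68 to 9.19 in Sca-1+ and 2.83 to 8.70 in Sca-1- samples on its main probe, and 3.18 to 3.58 in Sca-1+ and 2.96 to 3.55 in Sca-1- samples on the other. Pou2af1 was read by 1 probe on chromosome 9 (51048121 to 51048180, mm9, plus strand), at 3.34 to 6.71 in Sca-1+ and 3.65 to 10.1 in Sca-1- samples. These are signals that the extraction software did not place well above background, and no fold is given for them.

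Bank1, a scaffold that joins the receptor's kinases to calcium release, was likewise not detected. Its main probe on chromosome 3 (135727078 to 135727137, mm9, minus strand) had processed signals of 3.1 to 5.27 in Sca-1+ and 3.25 to 7.41 in Sca-1- samples. The second Bank1 probe (135716867 to 135716926) was at 2.58 to 3.36 in Sca-1+ and 2.86 to 7.30 in Sca-1- samples. Over the 5 probes of Pax5, Pou2af1 and Bank1 no array of either group carried the mark, so detection itself did not separate the groups for any of the 9 genes.

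Across the 6 measured genes, 5 differences were positive and 1 was negative, and the median was 0.34. Over all tested genes 55.4% of differences were positive and the median was 0.03. Limma called 0 of the 6, with 2, Blnk and Cd22, at an unadjusted p under 0.05, where 1.71% of all tested genes were called (339, of which 25 were higher and 314, or 1.58% of those tested, lower) and 8.96% had such an unadjusted p. With slide in the fit 1233 genes were called, 6.22% of those tested, and again 0 of the 6, whose adjusted p-values lay between 0.0663 and 0.413. In that fit Blnk, Cd22 and Cd72 had an unadjusted limma p of 0.00994, 0.0111 and 0.00556, and the other measured members were above 0.05. Of the 19818 tested genes, 4818 had an unadjusted p under 0.05 with slide in the fit. The 95% intervals, from the fit without slide, reached at most -0.95 downward and 0.97 upward. These are ratios of Sca-1+ to Sca-1- of 0.519 to 1.96. Within slides, 19 of 24 differences were positive.

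The signs of these differences were the same on slide 4 as over slides 1 to 3. Scan day, extraction protocol and samples differ together between them, so an effect of the scan day cannot be told apart. Over slides 1 to 3 the differences were -0.30 for Cd79a, 0.18 for Cd79b, 0.40 for Blnk, 0.32 for Blk, 0.48 for Cd22 and 0.37 for Cd72. On slide 4 they were -0.48, 0.17, 0.20, 0.38, 0.40 and 0.36 in the same order of genes. The value for Blnk on slide 4 was the one furthest below its value on the other slides, and slide 4 has 1 sample per group.

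Downstream signalling genes of the receptor were expressed throughout. All 21 genes of the proximal signalling list were well above background on all 8 arrays, from the kinases Syk, Lyn and Btk to Plcg2, the phospholipase that Blnk binds. Limma called 0 of 21, with 4 at an unadjusted p under 0.05, and the list median was 0.12. Over all tested genes 1.71% were called and 8.96% had such an unadjusted p, and 6.22% passed with slide in the fit. Prkcb, a protein kinase C isoform of the receptor pathway, stood at 5.27, 5.25, 5.07 and 5.37 in Sca-1+ samples, against 4.85, 4.86, 4.84 and 4.99 in Sca-1- samples. The groups did not overlap, and the difference of 0.35 ± 0.12 (SE) had a limma adjusted p of 0.335, or 0.0573 with slide in the fit. Pik3ap1, an adaptor for PI3-kinase, differed by 0.37 ± 0.14 (SE, limma adjusted p = 0.409). With slide in the fit the Src family kinase Fyn (0.54, adjusted p = 0.0352) and the calcium channel gene Itpr2 (0.47, adjusted p = 0.0472) were among the genes that passed, both higher in Sca-1+ pDC.

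Coreceptors and inhibitors gave 0 calls among 13 measured genes (median 0.05, 0 at an unadjusted p under 0.05). Over all tested genes 1.71% were called, and 6.22% with slide in the fit. Ptpn6, the phosphatase that Cd22 and Cd72 recruit, and Inpp5d, a lipid phosphatase of the same inhibitory route, were well above background on all arrays and had differences of 0.05 and 0.10, each with the other sign under some alternatives. Fcgr2b, the inhibitory Fc receptor, was the 1 gene to pass with slide in the fit, lower in Sca-1+ pDC (-0.61, adjusted p = 0.0365, against 0.657 without slide). Cd5 (0.48 ± 0.26 SE), Dok3 (-0.56 ± 0.29 SE) and Fcrla (0.52 ± 0.41 SE) passed in neither fit. Fcrl1 was at background on all 8 arrays.

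Among 15 measured transcription factors of the B lineage 0 passed, 1 had an unadjusted p under 0.05, and the median was -0.0048. The share that passed over all tested genes was 1.71%, and 6.22% with slide in the fit. Bach2, a repressor that restrains plasma cell formation, was nearest to the threshold, at -0.87 ± 0.20 (SE, limma adjusted p = 0.0904). Its level was -1.14, -1.63, -1.72 and -1.46 in Sca-1+ samples, against -0.19, -0.60, -0.80 and -0.87 in Sca-1- samples, and the groups did not overlap. With slide in the fit Bach2 was lower (adjusted p = 0.0101) and Id3, an inhibitor of E proteins, was higher (0.97, adjusted p = 0.0113) in Sca-1+ pDC. Ikzf1 (-0.32 ± 0.15 SE) and Pou2f2 (0.26 ± 0.13 SE), which encodes an octamer-binding partner of Pou2af1, did not pass in either fit. Ebf1, the factor that acts with Pax5 at the start of the B lineage, was well above background on 0 Sca-1+ arrays and 1 Sca-1- array.

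**Figure D4:**
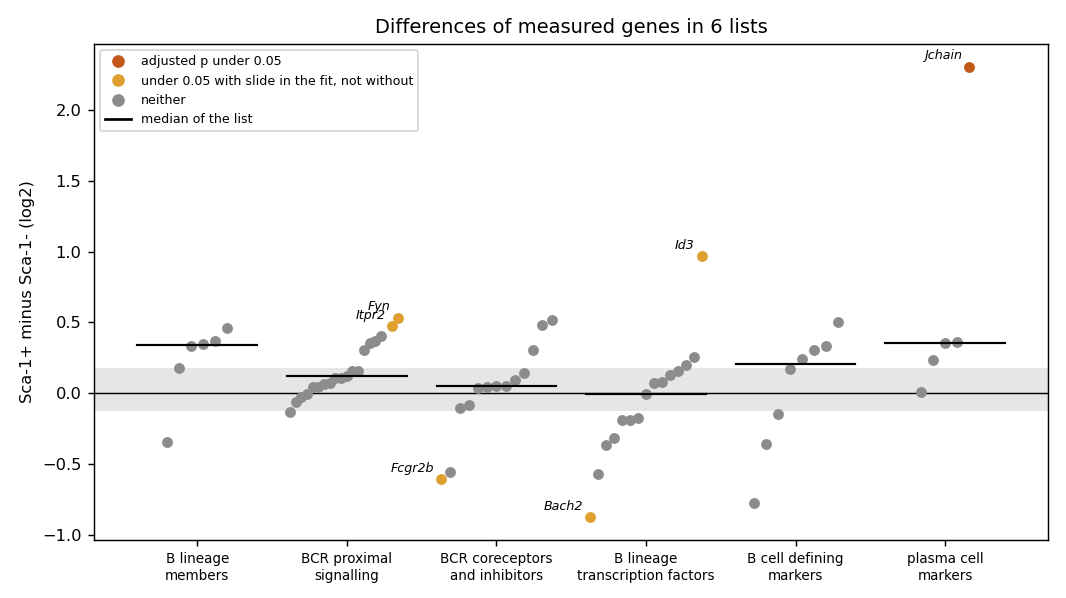
Difference between Sca-1+ and Sca-1- samples (log2) of measured genes in 6 lists, with the list median as a line and the middle 50% of all tested genes as a grey band. Jchain (2.31) is the gene past the threshold in the fit without slide, and Fyn, Itpr2, Fcgr2b, Bach2 and Id3 pass with slide in the fit and not without it.

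Markers that define B cells gave no call. Of 13 with a probe, 8 were measured and 0 were called, with 0 at an unadjusted p under 0.05 and a median of 0.21. Limma called 1.71% of all tested genes. Of the 8 measured, 7 were well above background on all 8 arrays, among them Cr2, Vpreb1 and Vpreb2. Ms4a1 and Igll1 were not well above background on any array, and Vpreb3 was detected on 0 Sca-1+ and 2 Sca-1- arrays. The linear signals of the list, each divided by the 75th percentile of its array, were summed. They came to 143 to 261 in Sca-1+ and 147 to 237 in Sca-1- samples, with Ly6d, Cd37 and Tnfrsf13c as the brightest genes. Most of the sum was the signal of Ly6d, which is also in the pDC marker list. Such sums, here and below, add signals of different probes and do not measure the share of a cell type. The measured members with the smallest adjusted p were Cd37 (0.33 ± 0.20 SE), Tnfrsf13c (-0.36 ± 0.23 SE), Fcmr (-0.77 ± 0.61 SE) and the surrogate light chain gene Vpreb1 (0.17 ± 0.14 SE).

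Plasma cell markers held the 1 call of the B lineage and receptor lists, and the pDC marker list below held another. Jchain, the joining chain of secreted immunoglobulin, was higher in Sca-1+ pDC by 2.31 ± 0.32 (SE, limma adjusted p = 0.00950). It was the 1 called gene of 5 measured, where 1.71% of all tested genes were called, and 0.126% were called higher. The Jchain level was 0.54, 1.25, 0.53 and 0.93 in Sca-1+ samples and -2.03, -1.43, -1.88 and -0.64 in Sca-1- samples, without overlap. The call ended when both samples of slide 1, 2 or 3 were left out (adjusted p = 0.0959, 0.136 and 0.119 for the Jchain difference). Xbp1 (0.35 ± 0.17 SE), Sdc1 (0.36 ± 0.55 SE) and Mzb1 (0.24 ± 0.60 SE) did not pass, and Tnfrsf17 was at background on all 8 arrays. The list summed to 361 to 435 in Sca-1+ and 241 to 399 in Sca-1- samples. Most of this sum was the signal of Xbp1, at a mean level of 8.57 in Sca-1+ and 8.22 in Sca-1- samples. The sum therefore does not follow Jchain. Whether cells of another type contribute to the Jchain signal was not tested.

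Markers of other cells gave few calls beside the 9 genes. The T and NK cell list had 0 calls among 6 measured genes, and summed to 12.4 to 15.5 in Sca-1+ and 11.3 to 15.4 in Sca-1- samples. Of its 14 genes with a probe, 5 were well above background on all 8 arrays (Cd3e, Lck, Zap70, Nkg7 and Prf1). Cd3g, Cd3d, Ncr1, Klrb1c and Eomes were at background throughout. The conventional DC list had 0 calls among 10 measured genes and sums of 201 to 251 in Sca-1+ and 192 to 239 in Sca-1- samples. All 10 were well above background on all 8 arrays, whereas Xcr1 and Esam were at background. With slide in the fit Sirpa (0.54, adjusted p = 0.0420) and Id2 (0.54, adjusted p = 0.0485) were higher and Zbtb46 (-1.20, adjusted p = 0.0131) was lower in Sca-1+ pDC. The monocyte, neutrophil and basophil list had 0 calls among 13 measured genes. Its sums were 245 to 404 in Sca-1+ and 223 to 382 in Sca-1- samples. Of the 13, 10 were well above background on all 8 arrays, whereas Ms4a2 was at background. Csf1r, the receptor of macrophage colony-stimulating factor, was lower with slide in the fit (-1.19, adjusted p = 0.00637, against 0.171 without slide). The part of these cells in the members' values was not tested. Of 22 pDC markers 1 was called, Dntt, the template-independent polymerase of lymphoid precursors, at 1.67 ± 0.30 (SE, limma adjusted p = 0.0314), and the pDC sums were 2551 to 3227 in Sca-1+ and 2191 to 3011 in Sca-1- samples. The Dntt call ended without any 1 sample other than Sca-1- replicate 4 (adjusted p = 0.065 to 0.129 for the Dntt difference). Irf7 (0.94), Lag3 (0.73), Tlr7 (0.58) and Ccr9 (0.55) passed with slide in the fit and not without it, all higher in Sca-1+ pDC. Their limma adjusted p-values with slide were 0.00606, 0.0250, 0.0460 and 0.0495. Of all tested genes, 6.22% passed with slide in the fit and 1.71% without it.

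The profile of Cd22, the member with the smallest unadjusted p, was set beside those of the 19817 other tested genes. Likeness was the root mean square distance between levels centred on their mean over the 8 samples, in log2 units. Among the 5 nearest named genes were Cib2 (0.073), Kif9 (0.101), Lipa (0.102) and Banp (0.105). Their own differences between Sca-1+ and Sca-1- samples were 0.39, 0.53, 0.42 and 0.42 in that order. The group difference is part of the compared profile, so values near that of Cd22 follow from the choice of genes.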

How the data were processed

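Gene expression was measured on 8 single-colour arrays, 4 of Sca-1+ and 4 of Sca-1- pDC, from 100 ng of RNA each per the labels. Per the file headers, the authors obtained spot intensity from the scans in Agilent Feature Extraction 10.7.3.1, which subtracted background and detrended the processed signal. The well-above-background, outlier, saturation and control marks deposited with each spot are also the authors' (other values). The series value table holds log2 values deposited by the authors, and served as an alternative. It correlated at 0.998 to 1.00 with the log2 processed signal, had a median of 3.90 in each column and 22 missing values, and its scale beyond that is not stated.

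Control spots and 105 to 162 outlier spots per array were left out, repeated spots were averaged per probe after taking log2, and the 75th percentile over 55681 probes was subtracted. That percentile lay between 166 and 396 on Sca-1+ arrays and between 152 and 434 on Sca-1- arrays, the highest of each group on slide 4. The number of arrays limits the precision. Probes were named through accession (26570), symbol (3092) or the file (26019). The probe of highest mean stood for its gene, and the gene was tested where 4 or more of the 8 arrays had that probe marked well above background. Differences came from limma 3.58.1 under R 4.3.3, with moderated two-sided tests and no pairing, and with Benjamini-Hochberg adjustment over all 19818 tested genes and a threshold of 0.05. The fit without slide was also run on simulated data with independent normal noise and no slide effect. That run therefore does not show how the fit behaves with shared slides. Figures used Python 3.11.15, pandas 2.3.3, numpy 2.4.6 and matplotlib 3.10.9.

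Same-numbered samples share a slide, and their deviations from the group means correlated at 0.44, 0.43, 0.64 and 0.89. The highest correlation with a sample of another number was 0.54, 0.54, 0.43 and -0.39, above the same-number value for replicates 1 and 2. Because every same-number correlation was over 0.1, the numbers were taken as pairs and slide as a term was the paired alternative. The members, lists and tests were chosen with earlier results of these data known. Named genes are the 9 members, Ly6a, the called genes and up to 4 genes of smallest adjusted p in each list, and the 5 genes nearest in profile to the member with the smallest unadjusted p. Itpr2, Fyn, Ccr9, Ptpn6, Inpp5d and genes named for detection or brightness were chosen after their values were seen, and of the lists of other cell types only genes that passed a fit, or whose sign turned under an alternative, are given values. Some genes of the lists are not reported here, though list counts and medians include them. Ighm, Ighd, Lilrb4, Ly6c2, Trbc1 and Ly6g had no probe under that name and were not analysed here. No genome of build mm9 was used, so exon and untranslated positions of probes were not analysed here.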

Additional observations from a re-analysis of the deposited data

Results flagged for a closer look

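The second, dim probe of Cd22 had 1 Sca-1+ sample far from the other 3. Replicate 4 was at -5.49, against -3.68 to -3.49 in the others, and its gap to the nearest was 0.902 of the group's range, past the 95% critical value of Dixon's test for 4 samples. Of 28 groups of 4 examined over the 14 probes, this was 1, and chance marks about 1 in 20. The main Cd22 probe had no such sample. On the dim probe Sca-1+ replicate 4 was not well above background, at a processed signal of 8.81, whereas the other 3 Sca-1+ samples were.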

How the results depend on the processing

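Under the 22 alternatives (slide as a term, other scaling, quantile or normexp processing, other filters and probe rules, array weights, the deposited value table, and samples left out), 0 of 6 measured members were called and all 6 kept their sign in every one. The lowest adjusted p was 0.0553. The median over the 6, 0.34, was 0.22 to 0.44 when samples were left out and 0.28 with normexp. The count of called genes over the array was 339, and 1233 with the replicate block (slide as a term), 182 without the filter on dim probes, 1509 with array weights, and 1 to 879 when samples were left out, the lowest without both samples of replicate 1 and the highest without both of replicate 4. Single samples that moved it by over 1.5 times were Sca-1+ replicates 2 and 3 (225 and 176 without them) and Sca-1- replicates 1, 2 and 3 (165, 163 and 205), as did both samples of replicate 2 (2) or 3 (29). The pairing by slide changed no call among the 9 members. Among genes named by the rule, uncalled values that took the other sign when samples were left out were the Sdc1 difference (-0.076 to 0.820), the Nkg7 difference (-0.0087 to 0.305), the Elane difference (-0.013 to 0.456) and the Mzb1 difference (-0.096 to 0.763). The Jchain call ended without replicate 1, 2 or 3 in both groups (adjusted p = 0.0959, 0.136 and 0.119), and the Dntt call without any 1 sample other than Sca-1- replicate 4, without replicate 1, 2 or 3 in both groups, or without the filter (adjusted p = 0.065 to 0.355 for the Dntt difference). The cause of these changes was not tested. Probes of Pou2af1, Bank1 and Pax5 carry no difference, because the signal was not well above background.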
